A study of Mus musculus with 6 samples.

Results

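The 10 genes of meiotic chromosome structure and recombination examined here in the developing mouse testis were Sycp1, Sycp2, Sycp3, Syce1 and Syce2 of the synaptonemal complex, Smc1b, Rec8 and Stag3 of cohesin, and Hormad1 and Dmc1. They were chosen by symbol, as 10 of the 17132 genes and 52 of the 73540 cleavage and polyadenylation sites (pAs) listed. RNA of whole testes of FVB mice aged 1, 2, 3, 4, 5 or 6 weeks (1w to 6w) was sequenced by 3'READS, which captures the 3' end of poly(A)+ transcripts, with 1 library per week. The labels name no treatment or altered genotype and do not say how many animals gave each RNA. The 1w, 2w and 3w libraries formed the 1-3 week group and the 4w, 5w and 6w libraries the 4-6 week group. The spread within a group of 3 therefore holds age, and p-values set the group difference against that spread. No age had a replicate library, so no p-value covers variation between animals of the same age.

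In prophase of the first meiotic division, homologous chromosomes pair, exchange DNA and become joined along their length by the synaptonemal complex. Its lateral elements hold SYCP2 and SYCP3, its transverse filaments SYCP1, and its central element SYCE1 and SYCE2. Cohesin rings keep sister chromatids together, and spermatocytes use the subunits SMC1B, REC8 and STAG3 beside or in place of the mitotic SMC1A, RAD21, STAG1 and STAG2. HORMAD1 binds unsynapsed chromosome axes, and DMC1 is the meiosis-specific recombinase that pairs a broken DNA end with the homologous chromosome. Spermatogonia enter meiosis as the first wave of spermatogenesis proceeds after birth, and spermatids appear after the meiotic divisions.

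Expression of a gene was the number of its PASS reads (poly(A) site-supporting reads) at pAs in the 3'-most exon, scaled to all PASS reads of the library (RPM). As each read marks a transcript end, RPM does not grow with transcript length. Where 3 values are given for a group, they are in order of age. The libraries held 4236999 to 6999620 PASS reads by the study's totals, and 3371380 to 5095293 reads at last-exon pAs of single genes. Markers of pachytene and late spermatocytes (8 genes) summed to 25.0, 88.3 and 1927 RPM in the 1-3 week group and 2381 to 2451 RPM in the 4-6 week group. Markers of spermatogonia (8 genes) summed to 1726, 2007 and 567 RPM, then 261, 197 and 130 RPM. Those of Sertoli cells (8 genes) gave 1612 to 4068 RPM in the younger and 300.2 to 665 RPM in the older group. The spermatid nuclear protein genes Prm1, Prm2, Tnp1 and Tnp2 took 0.044%, 0.0066% and 0.051% of PASS reads up to 3w, but 8.37%, 15.8% and 18.7% afterwards. Why 1w lay above 2w was not tested. Of the marker lists, no gene of the Sertoli list or of the 4 Leydig genes in the table was at 0 in any library, whereas Gfra1 of the spermatogonial list was at 0 from 1w to 3w and Zbtb16 at 5w and 6w. In the pachytene list Adam3 was at 0 at 1w, Ccna1 at 2w and Cdc25c at 4w, and Prm3, a further spermatid nuclear protein gene, at 1w. In whole testis, fewer cells of a type and less RNA per cell cannot be told apart.

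The 52 pAs comprised 29 last-exon pAs, 16 intronic pAs in 6 genes, 1 pA in an upstream exon (Dmc1) and 6 antisense pAs upstream of the transcription start site (TSS) in 5 genes. Sycp3, Syce1, Smc1b and Rec8 had 1 last-exon pA each, which makes 4 of 10 genes, beside 36.3% of all 16197 genes with last-exon pAs. The following mm9 sequences, 30 bases of the sense strand ending at the pA, are shown because the expression and isoform results rest on these sites. Capitals mark the poly(A) signals AATAAA or ATTAAA, the copy nearest the pA where there are several.
Sycp3, 278 nt after the stop codon, chr10:87935952-87935981, plus strand: gattgtgtcAATAAAgatgatttaaattta
Syce2, 217 nt after the stop codon, chr8:87411266-87411295, plus strand: atctgtagttgATTAAAtgttttgatttca
Rec8, 34 nt after the stop codon, chr14:56244203-56244232, plus strand: gttcATTAAAccatatcctgcctcactgga
Smc1b, 273 nt after the stop codon, chr15:84895119-84895148, minus strand: aaattggttataaaattttgaattctgcaa
Sycp2 Prx-pA, 78 nt after the stop codon, chr2:178080960-178080989, minus strand: taaagcactAATAAAgtagctttgcaaaga
Sycp2 Dis-pA, 322 nt after the stop codon, chr2:178080716-178080745, minus strand: cagttttggAATAAAatatactgaaatttg
Sycp1 first pA, 69 nt after the stop codon, chr3:102622679-102622708, minus strand: taaatagttatctttattatttccaagaga
Sycp1 Prx-pA, 177 nt after the stop codon, chr3:102622571-102622600, minus strand: taaaAATAAAataactatatttcatctgaa
Sycp1 Dis-pA, 329 nt after the stop codon, chr3:102622419-102622448, minus strand: tctttattATTAAAatattttgaatgcaaa
Sycp1 pA in intron 8, upstream, chr3:102733156-102733185, minus strand: aaagacaAATAAAtgtaggtatctttctta
Sycp1 pA in intron 8, downstream, chr3:102732443-102732472, minus strand: tgaaaggtAATAAAtgttaataagcacata
Sycp1 pA in intron 15, chr3:102716343-102716372, minus strand: atttctATTAAAaggtatttttaactacta

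AATAAA stood in the window of 9 and ATTAAA in that of 6 of the 29 last-exon pAs, while 14 had neither. Over all 45622 last-exon windows read the same way, 35.6% held AATAAA, 14.3% ATTAAA and 51.4% neither. Only the sense strand was searched, and both motifs could overlap or stand in 1 window. At the most used last-exon pA of each gene, 6 had AATAAA, 3 had ATTAAA, and Smc1b had neither in its window. The motif began 18 to 26 nt before these pAs. The shares above include less used pAs, and no shares were computed for the most used pAs of all genes. Exon and intron numbers and stop codons are those of GENCODE vM1 on mm9. Some pAs, among them the Dis-pA of Sycp1, lay a few bases beyond the annotated gene end.

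Sycp3, which codes for the main lateral element protein, was by far the most abundant of the 10 genes. Its level was 1075, 9621 and 10320 RPM in the 1-3 week libraries and 6483, 4152 and 2777 RPM in the 4-6 week libraries, from 4944 to 47406 reads at a single last-exon pA. By last-exon reads it ranked 85 among all genes at 1w but 2 at 3w, and was back at rank 18 by 6w. Its level was 8.95-fold higher at 2w than at 1w and lower in each library after 3w. Sycp2, the other lateral element gene, stood at 52.2, 193 and 378 RPM and later at 192, 166 and 101 RPM. For both genes the 1-3 week and 4-6 week libraries overlapped, because the 1w library was below all later ones and the 3w library was above them.

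The transverse filament gene Sycp1 followed another course. The younger libraries gave 18.1, 46.3 and 43.5 RPM and the older ones 56.5, 48.5 and 55.0 RPM, so that all 3 later libraries lay above the earlier ones, if only slightly above 2w. RPM of the 4-6 week libraries exceeded all 1-3 week libraries in 13.9% of 13553 genes with at least 20 reads. The central element gene Syce1 gave 83.3, 159 and 620 RPM, then 709, 680 and 550 RPM. Its largest step lay between 2w and 3w, the interval in which summed pachytene markers went from 88.3 to 1927 RPM, and their part in it was not tested. Syce2, the second central element gene, gave 508, 767 and 464 RPM in the younger and 777, 748 and 920 RPM in the older libraries. It was thus well above the other synaptonemal complex genes except Sycp3 at 1w and highest at 6w.

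Among the cohesin genes, Stag3 was most abundant, with 133, 274 and 310 RPM followed by 159, 114 and 96.9 RPM. Smc1b gave 23.1, 64.2 and 51.4 RPM in the younger group, and 38.3, 35.5 and 31.3 RPM in the older. The kleisin gene Rec8 stayed within a narrow range after 1w, with 13.7, 28.1 and 23.5 RPM up to 3w, then 31.2, 24.5 and 24 RPM. Exact Poisson 95% intervals of Rec8 at 2w and later overlapped, and intervals here cover counting error only. In all 3 genes the age groups overlapped, and for Stag3 and Smc1b the 4-6 week libraries lay below 2w and 3w. For Smc1b all of them lay above 1w, whereas for Stag3 4w lay above 1w, and 5w and 6w lay below it.

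Dmc1 and Hormad1 had few reads. Dmc1 gave 25, 95 and 30 last-exon reads in the younger libraries (5.44, 22.4 and 6.53 RPM) and 26, 12 and 13 in the older (4.98, 2.00 and 1.86 RPM). The 2w library stood above the other 5, and all 4-6 week libraries were below the earlier ones, an order found in 58.5% of genes. Hormad1 had 0 reads at 1w, then 2, 12, 9, 3 and 4 reads from 2w to 6w. The exact Poisson interval at 3w (1.35 to 4.56 RPM) lay above that at 1w (0 to 0.802 RPM), and the intervals of 2w to 6w overlapped. Such intervals cover counting error and not variation between animals.

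**Figure D1:**
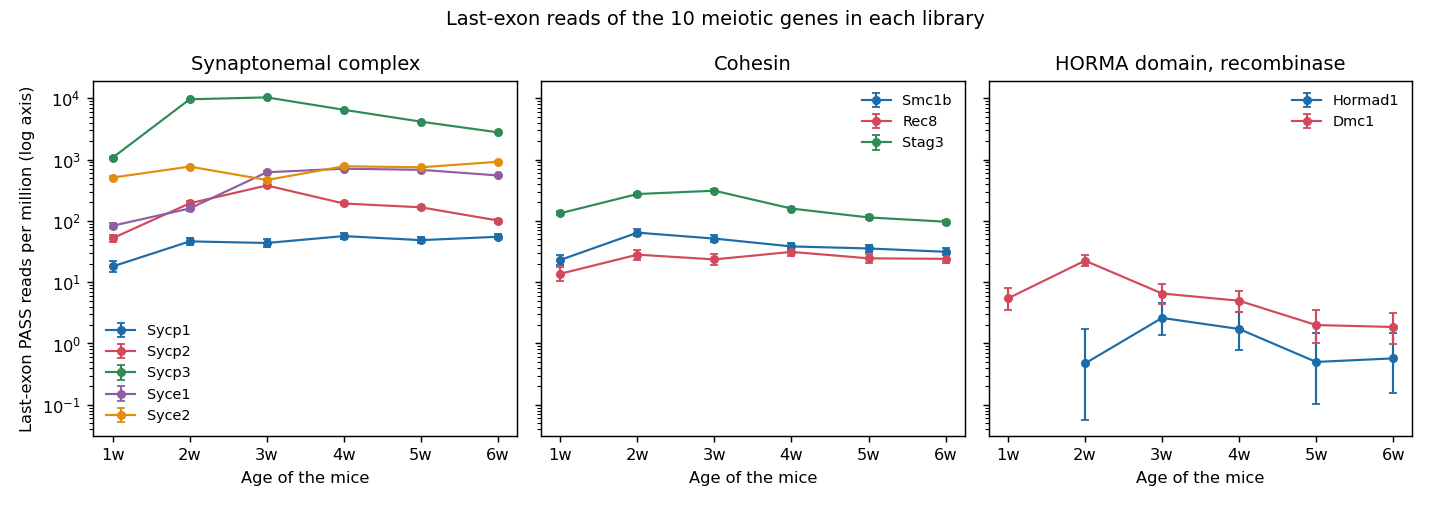
Last-exon RPM (log axis) of the 10 genes against the age of the mice, 1 library per point, with exact Poisson 95% intervals as bars. Sycp3 peaks at 10320 RPM at 3w, Dmc1 at 22.4 RPM at 2w, and Syce1 steps up between 2w and 3w. Hormad1 at 1w, with 0 reads, is not drawn.

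By RPM, Smc1b and Dmc1 were highest at 2w, Sycp2, Sycp3, Stag3 and Hormad1 at 3w, Sycp1, Syce1 and Rec8 at 4w, and Syce2 at 6w. Of 13553 genes with at least 20 reads, 37.3% were highest at 1w. The shares for 2w to 6w were 25.7%, 17%, 5.42%, 5.95% and 8.63%. No member was highest at 1w. This order depends on the scaling. With TMM (trimmed mean of M-values, which sets the library sizes so that most genes do not change), Sycp1, Syce2, Smc1b and Rec8 were highest at 6w, Syce1 at 5w, Sycp3 and Hormad1 at 4w, Sycp2 and Stag3 at 3w and Dmc1 at 2w. Over the same genes, TMM put the highest level at 1w in 31.2% and at 2w to 6w in 15.5%, 9.89%, 6.15%, 11.3% and 26%.

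The step from 1w to 2w was shared by most members. Of the 9 with at least 20 reads in both libraries together, 7 were more than 2-fold higher at 2w (Sycp3 8.95-fold, Dmc1 4.01-fold, Sycp2 3.69-fold, Smc1b 2.77-fold, Sycp1 2.55-fold, Stag3 2.06-fold and Rec8 2.04-fold), beside 6.75% of 11000 genes, and 0 were more than 2-fold lower, beside 5.92%. Syce1 was 1.91-fold and Syce2 1.51-fold higher. The median change of the 9 was 1.35 on the log2 scale and that of all genes -0.04. With 1 library per week these changes were not tested, and TMM left 5 of the 7 past 2-fold. The share of all genes past 2-fold with TMM was not computed. Summed spermatogonial markers gave 1726 and 2007 RPM in these libraries and pachytene markers 25.0 and 88.3 RPM, and their part in the step was not tested.

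From 2w to 3w, Syce1 was 3.89-fold higher, beside 16.5% of 11378 genes past 2-fold in that direction, and Dmc1 was 3.36-fold lower, beside 31.1%. From 3w to 4w, 0 of 10 members passed 2-fold in either direction, beside 9.93% of genes higher and 36.6% lower. Sycp2 and Stag3 came nearest, 1.97-fold and 1.96-fold lower. Of the 10, 8 stood above the median gene, whose RPM changed by -0.74 on the log2 scale. In the same step the spermatid nuclear protein genes named above came to 8.37% of the PASS reads, and their part in these changes was not tested. From 4w to 5w Dmc1 alone passed, 2.39-fold lower, on 26 and 12 reads and beside 8.3% of genes, and 0 members were higher beside 1.22%. From 5w to 6w 0 members passed either way, beside 0.893% of genes higher and 4.72% lower.

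The 4-6 week libraries were then compared with the 1-3 week libraries, 3 against 3, by edgeR's quasi-likelihood test over 11269 genes with Benjamini-Hochberg adjustment and TMM scaling. Enough reads were present for 9 members but not for Hormad1. Sycp1, Syce2 and Rec8 were higher at 4-6 weeks, which is 3 of 9 beside 17.7% of genes called higher, and 0 members were called lower beside 22.5%. At unadjusted p under 0.05, 4 members were higher and 0 lower, and DESeq2 with its own size factors called 5 higher (Sycp1, Syce1, Syce2, Smc1b and Rec8) and 0 lower. The shares of all genes at these settings were not computed, so how these counts compare with all genes is not known. Sycp1 rose by 1.88 on the log2 scale (SE 0.47, edgeR adjusted p = 0.0261), Syce2 by 1.88 (SE 0.46, edgeR adjusted p = 0.0246) and Rec8 by 1.59 (SE 0.36, edgeR adjusted p = 0.0218). Syce1 had the greatest difference of the 9, 2.34, with an SE of 0.89, and did not pass (edgeR adjusted p = 0.0721). The differences were 0.91 for Smc1b, 0.74 for Sycp2, 0.55 for Sycp3, 0.30 for Stag3 and -0.66 for Dmc1, with edgeR adjusted p from 0.127 to 0.648.

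These calls rested on the scaling and on single libraries. With the study's PASS totals in place of TMM, the median gene changed by -1.38 on the log2 scale instead of -0.07, and 0 members were higher, also at unadjusted p under 0.05. Dmc1 was then lower, by -1.96 (SE 0.70, edgeR adjusted p = 0.0386), beside 9.6% of genes called higher and 54.9% lower. The median of the 9 members was 0.91 with TMM and -0.40 with PASS totals, so it lay 0.99 and 0.98 above the median gene. Without the 2w, 4w, 5w or 6w library no member was called, with 3 members at unadjusted p under 0.05 each time. Without 1w Rec8 and Sycp1 were called, and without 3w 6 members were (Rec8, Smc1b, Syce1, Syce2, Sycp1 and Sycp2). The shares of all genes called with a library left out were not computed. Over these exclusions the change stayed between 1.53 and 2.32 for Sycp1, 1.72 and 2.21 for Syce2 and 1.31 and 1.91 for Rec8, with edgeR adjusted p up to 0.105.

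**Figure D2:**
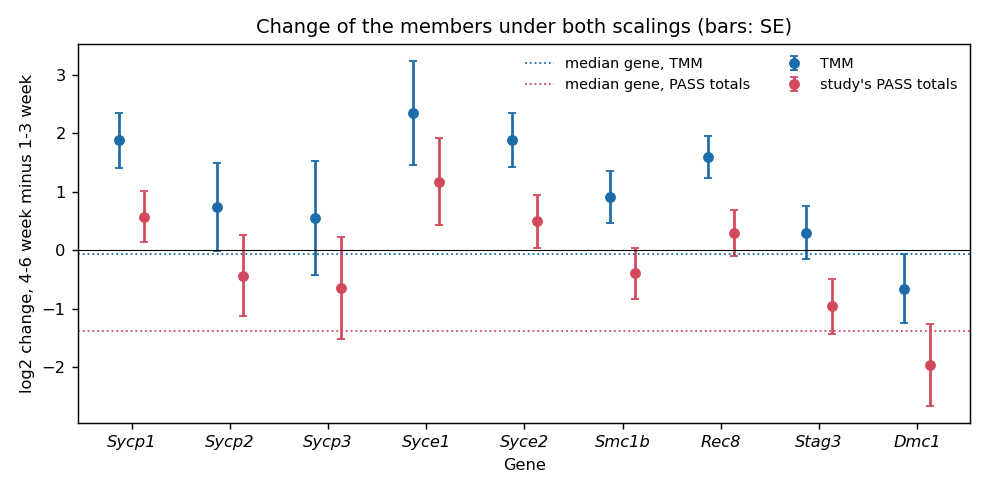
Fitted log2 change of the 9 tested members, 4-6 week minus 1-3 week, with TMM (blue) and with the study's PASS totals (red), with bars of 1 SE. Dotted lines mark the median gene, at -0.07 and -1.38. Each member is lower with PASS totals than with TMM, and 8 of the 9 lie above the median gene in both scalings.

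Reads of a meiotic subunit as a share of those of the subunit and its mitotic counterpart do not depend on scaling. Smc1b made up 33.2%, 61.3% and 84.3% of Smc1b and Smc1a reads in the younger libraries and 91.3%, 95.5% and 96.5% in the older, with 95% Wilson intervals of 28.3 to 38.6 for 1w and 93.2 to 98.2 for 6w. For Rec8 with Rad21 the shares were 5.39% (interval 4.24 to 6.84), 15.4% and 28.6%, then 48.2%, 53.3% and 57.7% (interval 52.0 to 63.3). Stag3 took 76.1%, 88.7% and 95.3% of Stag3 and Stag1 reads, and 96.7% to 96.9% after 3w. Against Stag2 it took 68.2% and 88.4% in the first libraries and 95.5% to 96.5% from 3w on.

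The Smc1b, Rec8 and Stag3 with Stag1 shares did not overlap between the age groups, whereas the Stag3 with Stag2 shares did. Wilson intervals at 3w and 4w nevertheless overlapped for Stag3 with Stag1 (94.06 to 96.22 and 95.45 to 97.82). They also overlapped for Smc1b (79.56 to 88.08 and 86.85 to 94.38), but not for Rec8 (24.25 to 33.32 and 42.95 to 53.54). By RPM, all 4-6 week libraries lay below all 1-3 week libraries for Smc1a, Rad21, Stag1 and Stag2, as in 58.5% of 13553 genes. Shares of other gene pairs were not computed, so how common such an order is among pairs is not known. The mean share of Smc1b was 59.6% ± 25.6 (SD, n = 3) at 1-3 weeks and 94.4% ± 2.74 (SD, n = 3) at 4-6 weeks, with an exact two-sided permutation p of 0.1, the smallest that 3 against 3 libraries can give, so no call at 0.05 was possible. That of Rec8 was 16.5% ± 11.6 (SD, n = 3) and 53.1% ± 4.76 (SD, n = 3), with the same exact permutation p of 0.1, or 0.133 after adjustment over 4 pairs. The difference of the group means was 34.8 percentage points for Smc1b and 21.7 without 1w. It was 10.1 for Stag3 with Stag1 and 11.7 for Stag3 with Stag2, and 4.8 and 3.64 without 1w. Without 3w the difference for Stag3 with Stag2 was 17.8.

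Of the 4 mitotic cohesin genes, Smc1a and Stag1 were called lower at 4-6 weeks with TMM, beside 22.5% of 11269 genes. Smc1a gave 213, 172 and 44 reads, then 19, 10 and 8, and fell by 2.58 on the log2 scale (SE 0.59, edgeR adjusted p = 0.0215). Stag1 fell by 1.54 (SE 0.35, edgeR adjusted p = 0.021). Without 2w, 4w, 5w or 6w neither passed, with changes of -2.85 to -2.25 for Smc1a and -1.68 to -1.31 for Stag1 over all exclusions (edgeR adjusted p up to 0.103). Rad21 and Stag2 differed by -1.29 and -1.48 and did not pass (edgeR adjusted p = 0.0589 and 0.0614), but both were called lower without 3w (edgeR adjusted p = 0.000976 and 0.000812) and with DESeq2 (adjusted p = 0.0245 and 0.0264). With PASS totals all 4 were called lower (edgeR adjusted p of 0.00552 to 0.0073), beside 54.9% of genes. Smc3, the partner of both SMC1 proteins, was the exception, at 3.48 to 8.70 RPM in the younger and 6.00 to 6.33 RPM in the older libraries. With TMM it was higher by 1.23 (SE 0.36, edgeR adjusted p = 0.0372), and with PASS totals its change was -0.16. It passed with 1 library left out only for 3w (edgeR adjusted p up to 0.112 otherwise). Summed Sertoli markers, from cells outside the germ line, were 1612 to 4068 RPM at 1-3 weeks and 300.2 to 665 RPM at 4-6 weeks, and their part in the shares was not tested.

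**Figure D3:**
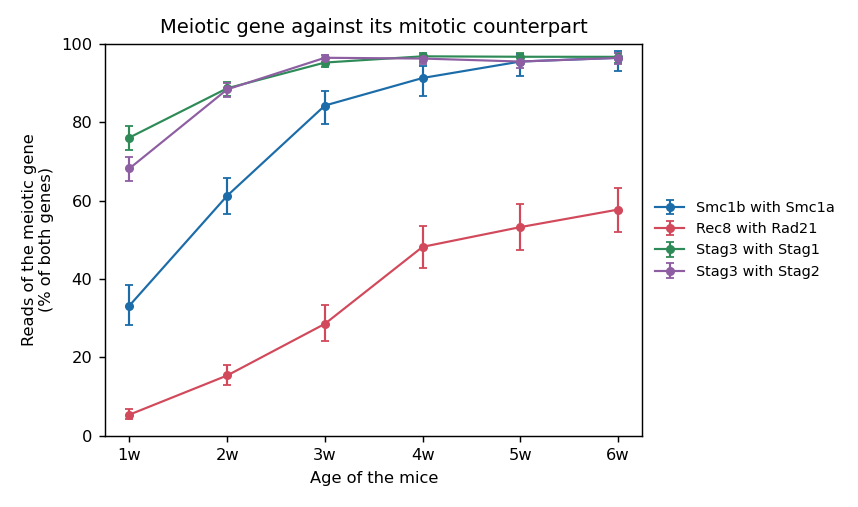
Reads of each meiotic gene as a percentage of the reads of that gene and its mitotic counterpart, against age, with 95% Wilson intervals as bars. Between 1w and 6w the Smc1b share climbs from 33.2% to 96.5% and the Rec8 share from 5.39% to 57.7%.

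Alternative pA usage was next compared within genes. In the last exon, the most used pair of pAs was named Prx-pA (nearer the stop codon) and Dis-pA. At least 20 reads of the pair in every library were present for 4 members, whose ratio was tested by edgeR with a term for each library. The Dis-pA share of Sycp1 was 21.3%, 40.8% and 44.1% in the younger group and 19.7%, 14.3% and 12.8% in the older. All later libraries lay below the earlier ones, although the Wilson intervals of 1w (13.7 to 31.4) and 4w (15.3 to 25.0) overlapped. How common this order of Dis-pA shares is among all genes was not computed. The ratio fell by 1.60 on the log2 scale (SE 0.51, edgeR adjusted p = 0.0328).

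Another Sycp1 pA, 69 nt after the stop codon and with neither signal in its window, gave 3.61%, 4.59% and 4.50% of last-exon reads up to 3w, then 9.83%, 11.7% and 18.7%. The read-weighted mean 3'UTR size of Sycp1 was 204 to 234 nt in the younger libraries and 191, 182 and 171 nt in the older. Syce2 also passed, with a change of -1.81 (SE 0.64, edgeR adjusted p = 0.0488), but its Dis-pA, 1042 nt after the stop codon, had 38 reads in all (3, 11, 11, 6, 4 and 3 from 1w to 6w) beside 22639 at the Prx-pA. Its share was 0.047% to 0.52% and the groups overlapped.

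Both calls were falls, which is 2 of 4 tested members beside 34.4% of 4270 genes called lower and 1.31% called higher. No member was called higher, also at unadjusted p under 0.05 and with DESeq2. Sycp1 passed with DESeq2 and with the pair chosen by mean share, whereas Syce2 did not. Without 2w, 5w or 6w neither passed, and without 3w Sycp1 and Sycp2 did. Over these exclusions the change of Sycp1 was -2.01 to -1.36 (edgeR adjusted p up to 0.129) and that of Syce2 -2.23 to -1.41 (up to 0.183). The Dis-pA share of Sycp2 was 27.0%, 26.5% and 18.2%, then 17.1%, 13.8% and 16.01%, a difference of -0.74 (SE 0.39, edgeR adjusted p = 0.171). In Stag3 the Dis-pA, 347 nt after the stop codon, took 98.4% to 99.7% of the pair in every library (edgeR adjusted p = 0.347).

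Reads at pAs in introns or upstream exons (CDS-pAs) were compared with those at last-exon pAs. In Sycp1 CDS-pAs took 42.8%, 28.5% and 19.4% of sense reads in the younger libraries and 6.05%, 8.49% and 7.89% in the older. The first of these shares was 62 of 145 reads, with a Wilson interval of 35.0 to 50.9. The groups did not overlap, and the share of all genes with CDS-pA shares in such an order was not computed. The ratio fell by 2.36 on the log2 scale (SE 0.64, edgeR adjusted p = 0.0161). This was 1 of 4 tested members, beside 4.19% of 2437 genes called lower and 20.8% called higher. None was higher, also at unadjusted p under 0.05. Leaving out any library other than 3w ended the Sycp1 call (edgeR adjusted p up to 0.0657), although its change stayed between -2.74 and -1.94.

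All 3 intronic pAs of Sycp1 had lower shares in the older libraries, and no single site was tested. The upstream pA in intron 8 took 11.7%, 17.2% and 10.5% of sense reads, then 4.78%, 6.29% and 7.42%. Its reads were 17, 47 and 26, then 15, 20 and 31, and its Wilson intervals of 3w (7.3 to 14.9) and 6w (5.3 to 10.3) overlapped. The downstream pA in intron 8 took 18.6%, 9.12% and 6.45%, then 1.27%, 1.89% and 0.48%. The pA in intron 15 had 18, 6 and 6 reads in the younger libraries, then 0, 1 and 0. Transcripts ending at these sites would lack the exons downstream of intron 8 or 15 of the 33-exon gene.

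**Figure D4:**
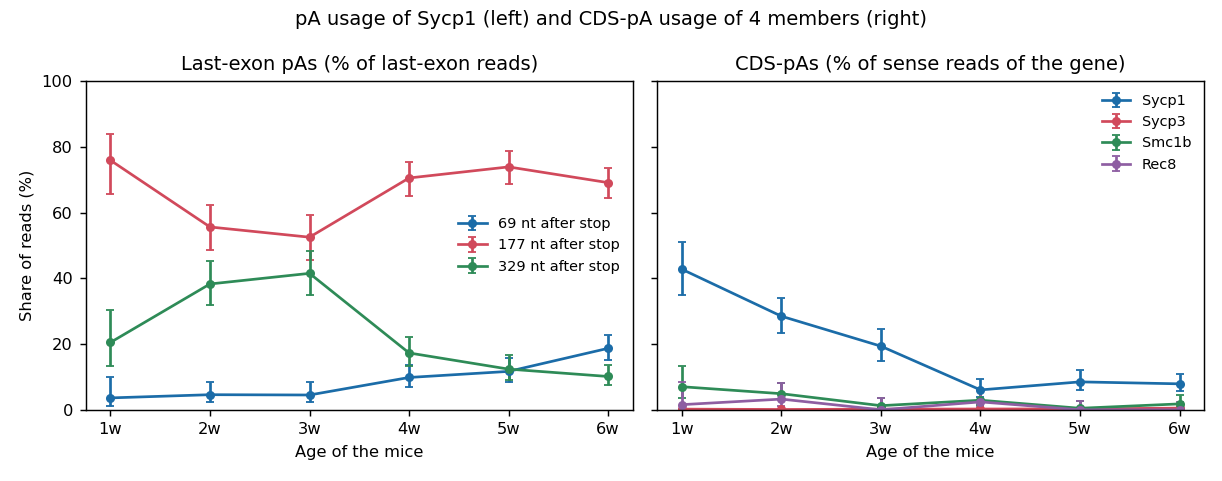
Left, shares of Sycp1 last-exon reads at its 3 most used last-exon pAs, named by their distance from the stop codon; right, CDS-pA reads as a percentage of sense reads in the 4 tested members. Points are single libraries with 95% Wilson intervals. The site at 329 nt drops after 3w, the site at 69 nt reaches 18.7% at 6w, and the Sycp1 CDS-pA share drops from 42.8% at 1w to 6.05% at 4w.

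The other members used CDS-pAs rarely or had few reads. Sycp3 had 10 to 99 reads per library at a pA in intron 5, or 0.096% to 0.51% of its sense reads, with the highest share at 6w. Its change of 1.06 (edgeR adjusted p = 0.32) and that of Smc1b, -1.25 (edgeR adjusted p = 0.32), did not pass. Rec8 had 9 reads in intron 6 (-1.07, edgeR adjusted p = 0.609). Hormad1 and Dmc1 were below the read minimum and were not tested. In Hormad1, CDS-pAs had 16 of 30 sense reads at 1-3 weeks and 25 of 41 at 4-6 weeks, thus more than its last exon, with 23 of them at a pA in intron 15. In Dmc1 they had 20 of 170 and 15 of 66 reads, or 11.8% (Wilson interval 7.75 to 17.5) and 22.7% (14.3 to 34.2), whose intervals overlap.

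Upstream antisense RNAs (uaRNAs) are short-lived transcripts that start near a promoter and run away from the gene. For 5 members such pAs were listed, and no gene is annotated on that strand between the TSS and any of these pAs. Sycp1 uaRNA, which ended 211 nt upstream of the TSS, gave 0, 0 and 19 reads in the younger libraries and 67, 87 and 100 in the older (12.8, 14.5 and 14.3 RPM). Sycp2 uaRNA, at 399 and 1097 nt, had 0, 3 and 24 reads, then 40, 43 and 47. Dmc1 uaRNA, at 865 nt, had 0 reads in each of the 1-3 week libraries, with exact Poisson upper limits of 0.802 to 0.871 RPM, and 11, 18 and 22 in the older ones (2.11, 3.00 and 3.14 RPM).

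In these 3 genes all 4-6 week libraries lay above all 1-3 week libraries in uaRNA RPM, as did 38.8% of the 2072 genes with at least 20 uaRNA reads. Sense reads of Dmc1, not scaled to library size, were 29, 102 and 39 in the younger libraries and 29, 16 and 21 in the older. By last-exon RPM all older libraries of Dmc1 lay below the younger ones, as in 58.5% of genes. With TMM its change did not pass (-0.66, edgeR adjusted p = 0.376). At 5w and 6w its uaRNA reads exceeded its sense reads by a small margin. Syce1 and Syce2 had 14 and 13 uaRNA reads in all. No test of uaRNA levels was made.

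**Figure D5:**
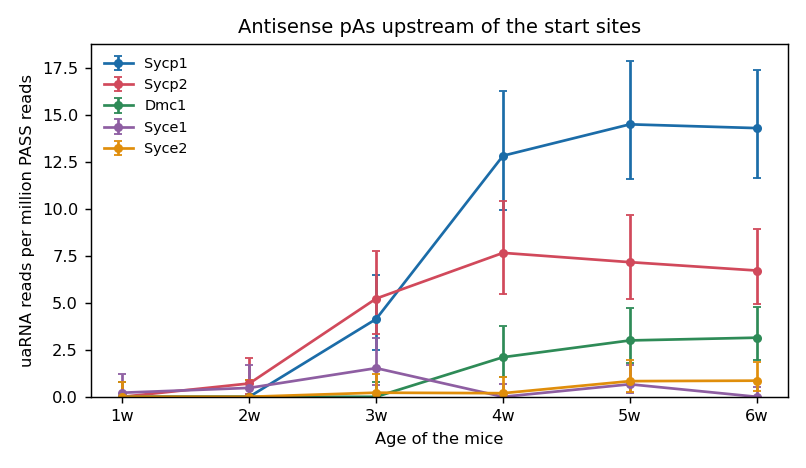
uaRNA level in RPM of the 5 members with upstream antisense pAs, against age, with exact Poisson 95% intervals as bars. Sycp1 uaRNA goes from 0 at 2w to 12.8 RPM at 4w, and Dmc1 uaRNA is seen only at 4w, 5w and 6w among these libraries.

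A list of 38 symbols of other genes of meiotic prophase, with second symbols for some genes, was examined beside the members. Of these symbols 29 were in the table and 24 were tested. With TMM, 1 was higher (Smc3) beside 17.7% of all genes, 2 were lower beside 22.5%, and 21 did not pass. The median change was 0.24, against 0.91 for the members and -0.07 for all genes. With PASS totals, 0 were higher beside 9.6% of all genes and 10 lower beside 54.9%, and the median was -1.02. The 2 lower genes with TMM were Trip13, the ATPase that removes HORMA domain proteins from synapsed axes (-0.88, SE 0.28, edgeR adjusted p = 0.0482), and Tex11, of crossover formation (-1.39, SE 0.44, edgeR adjusted p = 0.0457). Both lay just under the threshold, and without 1w, 2w, 4w, 5w or 6w neither passed (edgeR adjusted p of 0.067 to 0.187).

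Syce3, a further central element gene, gave 11.7, 64.7 and 78.6 RPM, then 74.4, 75.1 and 94.4 RPM, a difference of 1.96 (SE 0.75, edgeR adjusted p = 0.0741). It passed with DESeq2 (2.13, adjusted p = 0.00602) and without 3w (2.71, edgeR adjusted p = 0.00384). Spo11, which makes the meiotic DNA breaks, had 2, 12 and 71 reads followed by 48, 53 and 42 (edgeR adjusted p = 0.27), and passed without 3w (3.84, edgeR adjusted p = 0.000249). Msh4, of the MutS complex at crossover precursors, had 4 reads at 1w and 40 to 50 in each later library (1.26, edgeR adjusted p = 0.213), and was just under the threshold without 3w (1.74, edgeR adjusted p = 0.0497). Tex12, Hormad2 and Mlh3 had 26, 3 and 44 reads in all and were not tested.

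The 5 non-member genes whose course was most like the mean of the 10 members were 6330409N04Rik, Bbs9, 2900064A13Rik, S100a4 and Sept3. Likeness was the root mean square distance between centred log2(RPM + 1) profiles over the 6 libraries, among 10419 genes with at least 100 reads. The distances were 0.085 to 0.162, whereas those of the members themselves from their mean were 0.232 (Smc1b) to 0.984 (Syce1). The closest, 6330409N04Rik, gave 7.39, 22.0 and 26.3 RPM, then 21.2, 18.0 and 15.3 RPM.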

How the data were processed

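Testis libraries of 6 ages, 1 each, were used. Per the labels and methods, the authors mapped 3'READS reads to mm9 with Bowtie 2 (version not given in the sources used here), kept PASS reads with at least 2 unaligned Ts and clustered pAs within 24 nt; the deposited values are raw read counts per pA. Molecular identifiers are not mentioned. From these counts, last-exon reads were summed per gene, leaving out 1053 pA rows assigned to several genes. RPM used the study's PASS totals, of which the table holds 77.4% to 83.7%. The 3 against 3 tests used edgeR 4.0.16 (quasi-likelihood, TMM, filterByExpr, Benjamini-Hochberg adjusted p, threshold 0.05) in R 4.3.3, with DESeq2 1.42.0 as an alternative. Ratio tests needed at least 20 reads in every library, and CDS-pA tests at least 5 CDS-pA reads in all. The SE of a log2 change was taken as its size over the square root of F. Adjacent weeks were compared after adding 1 read, for genes with at least 20 reads in both libraries together. Intervals (Wilson, exact Poisson) are at 95%, from SciPy 1.17.1. Tests were checked on simulated data, with no age trend of expression or pA ratios within a group and with rises and falls balanced. That check does not cover age trends within groups or shifts of library composition. Alternatives were other scalings, filters, folds, pA pairs and each library left out. The members and lists were chosen with earlier results of these data known. Values were given for all members, for named genes of the pathway list and those passing the test, for mitotic counterparts, and for the 5 nearest profiles. A few listed genes are not reported here and were left out of the counts of the lists. Sequences were read from the NCBIM37 (mm9) genome.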

Additional observations from a re-analysis of the deposited data

How the results depend on the processing

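Shares of all genes called were computed only for the main tests and, for expression, with the PASS totals. Member counts at other settings therefore have no such share beside them. Counts of members called moved with the processing as follows. For expression, 3 members were higher and 0 lower with TMM. The study's PASS totals and the table's own totals each gave 0 higher and 1 lower (Dmc1), DESeq2 gave 5 higher, and leaving out 1 library gave 0 to 6 higher. With the PASS totals and the table totals in turn, the direction turned for Sycp2 (-0.44 and -0.40 on the log2 scale), Sycp3 (-0.65 and -0.60), Smc1b (-0.40 and -0.34), Stag3 (-0.96 and -0.91) and Smc3 (-0.16 and -0.09), and Msh4 was at -0.03 with PASS totals. It turned too for Stag3 without 1w (-0.04, in a range of -0.04 to 0.82 with 1 library left out) and Dmc1 without 2w (0.11, range -1.02 to 0.11). For Dis-pA against Prx-pA, 2 members were lower. The pair chosen by mean share and DESeq2 each left 1, and leaving out 1 library left 0 to 2. For CDS-pA against 3'UTR-pA, 1 member was lower, and leaving out 1 library gave 0 to 2, the latter without 3w, where Smc1b also passed. The CDS-pA change of Rec8 turned to 0.11 without 2w (range -4.62 to 0.11). The shares of the 4 cohesin pairs, examined with each library left out after the data were seen, kept their direction each time, with differences of 21.7 to 47.2 percentage points for Smc1b, 31.1 to 42.7 for Rec8, 4.8 to 14.4 for Stag3 with Stag1 and 3.64 to 17.8 for Stag3 with Stag2, each lowest without 1w and highest without 3w. Over all single-gene expression changes and alternatives, 133 kept their direction and side of the threshold, 44 kept only the direction and lost the call, 19 gained one and 13 turned. For Dis-pA ratios these counts were 26, 9, 1 and 0, and for CDS-pA ratios 25, 5, 1 and 1. The cause of these moves was not tested.

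For adjacent weeks, shares of all genes past the fold were computed only for the main setting. How the counts at other settings compare with all genes is not known. At 2-fold, 3w vs. 2w had 1 member higher and 1 lower. Changes relative to the median gene, TMM and no read minimum each gave 2 higher, and a limit of 1.5-fold gave 2 higher and 2 lower. For 4w vs. 3w, with 0 in each direction, changes relative to the median gene and TMM each gave 3 higher, and the 1.5-fold limit gave 1 higher and 3 lower. For 5w vs. 4w, 1 member was lower, and this became 0 relative to the median gene and with TMM, and 2 with no read minimum or at 1.5-fold. For 6w vs. 5w, with 0 lower, the 1.5-fold limit gave 1. The 2w vs. 1w count of 7 higher went to 5 with TMM, 8 with no minimum and 9 at 1.5-fold, within 1.5 times. No paired analysis was possible because the replicate numbers of the age groups follow age and pair no libraries. One library per week, few reads of Hormad1 and Dmc1, and TMM library sizes that rest on most genes being unchanged limit these results.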
